A study of Saccharomyces cerevisiae with 24 samples.

Results

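The comparison described here is that of H3L126M cells with WT cells of budding yeast, both grown in the glucose medium YPD, in which yeast ferments. It was chosen by the strain and medium in the labels, and it holds 8 of the 24 mRNA-seq libraries of the study, 4 of H3L126M and 4 of WT. H3L126M (strain NTY062) carries methionine in place of leucine at residue 126 of histone H3, introduced with CRISPR-Cas9 into both genes for H3, HHT1 and HHT2. WT is the strain OCY1131, which descends from BY4741, a laboratory haploid of mating type a and S288C ancestry. Both strains share the alleles his3Δ1, leu2Δ0, met15Δ0 and ura3Δ0 and an HHT2 gene that had been deleted with ura3 and put back. The strain table lists a single H3L126M strain, so all 4 H3L126M libraries come from NTY062 and an effect of that isolate cannot be told apart from an effect of the substitution. Cells were grown at 30 °C, whole cells were extracted, and the 4 libraries of each strain came from replicate experiments. The other 16 libraries are of the same strains in the ethanol and glycerol medium YPEG and of the second substitution, H3L126H, in both media, and they enter only where they show how the H3L126M cells in glucose differ.

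Histones H3 and H4 form the core of the nucleosome, around which DNA is wrapped, and residue 126 lies near the end of H3 where both H3 copies of a nucleosome meet. The H3-H4 tetramer has been described as a copper reductase that uses this interface, and the study set out to learn how a change of the residue affects the use of copper. Nucleosomes also cover promoters, and several yeast pathways are known for promoters whose nucleosomes are moved or removed on induction, among them that of the acid phosphatase PHO5. The stretches around the substituted leucine are shown because they define the strain. They are the last bases of each open reading frame (ORF) of H3 in the RefSeq reference (build R64), read 5′ to 3′ on the coding strand, with the leucine codon in capitals. Residues are counted without the initiator methionine.
HHT1, chrII:256679-256741, plus strand: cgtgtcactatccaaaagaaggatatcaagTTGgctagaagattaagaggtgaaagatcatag
HHT2, chrXIV:575640-575702, minus strand: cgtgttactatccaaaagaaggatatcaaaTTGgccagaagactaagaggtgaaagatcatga
Both genes use the same leucine codon there and differ from each other at several bases outside it. Counts carry no base calls, and the codon of each library was therefore not checked.

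Assigned reads per library were 10583360 to 12355689 in H3L126M and 11465913 to 13024479 in WT. The genotype markers fitted a MATa strain with the listed deletions, since URA3 and MET17 had no count in the 8 libraries, LEU2 had at most 1, and HMRA1, whose sequence is also that of the a mating-type gene, had 455 to 567 counts in H3L126M and 493 to 578 in WT. The WT libraries did not form a single cloud. Over 5248 well counted genes, the deviations from the WT mean correlated at 0.76 between replicates 1 and 2 and at 0.68 between replicates 3 and 4, and at -0.81 to -0.90 between the pairs, where a negative value is partly built in because the deviations in a group add up to 0. The chi-square per degree of freedom between their counts was 3.91 and 9.75 within the pairs and 49.8 to 81.4 across them, against 5.46 to 39.1 among the 4 H3L126M libraries, so no 2 libraries were copies. The labels give no batch for these pairs. The first principal component of the 8 libraries held 47.7% of the variance and separated the pairs of WT libraries, and the second, with 34.0%, separated the strains. H3L126M replicate 4 also stood apart in composition, with a TMM scaling factor of 1.13 where the other H3L126M libraries had 0.996 to 1.03. Results that rest on these libraries are therefore given with and without them below.

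Of 5976 genes tested, 871 (14.6%) were called at an adjusted p below 0.05 (edgeR quasi-likelihood test, Benjamini-Hochberg adjustment over all genes), 468 (7.83%) higher and 403 (6.74%) lower in H3L126M. At an unadjusted p below 0.05 there were 1726 (28.9%). Changes were mostly modest, with a median size of 0.46 on the log2 scale among called genes, and 459 of them changed by less than 0.5 on the log2 scale. At least a 2-fold change was called for 144 genes (2.41%), 125 higher (2.09%) and 19 lower (0.318%), and the H3L126M and WT libraries did not overlap in 120 and 18 of them, where 1091 of all genes (18.3%) did not overlap. The number of calls rested on which WT libraries were used, with 1635 genes called without WT replicates 1 and 2 and 2068 without WT replicates 3 and 4, against 487 without H3L126M replicates 1 and 2 and 604 without H3L126M replicates 3 and 4. The division into higher and lower calls depended on scaling. With upper-quartile scaling 567 genes were higher and 294 lower, so that 65.9% of calls were higher in place of 53.7%. With the size factors of DESeq2 in edgeR 431 were higher and 455 lower (48.6% higher), and the Wald test of DESeq2 gave 494 and 550 (47.3% higher), so which direction held more calls was not settled. The 2 directions held different kinds of genes. Calls among genes for phosphate, methionine, other amino acids, purines and histones were mostly lower, while calls among genes of sporulation, mating and Ty retrotransposons were mostly higher.

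**Figure D1:**
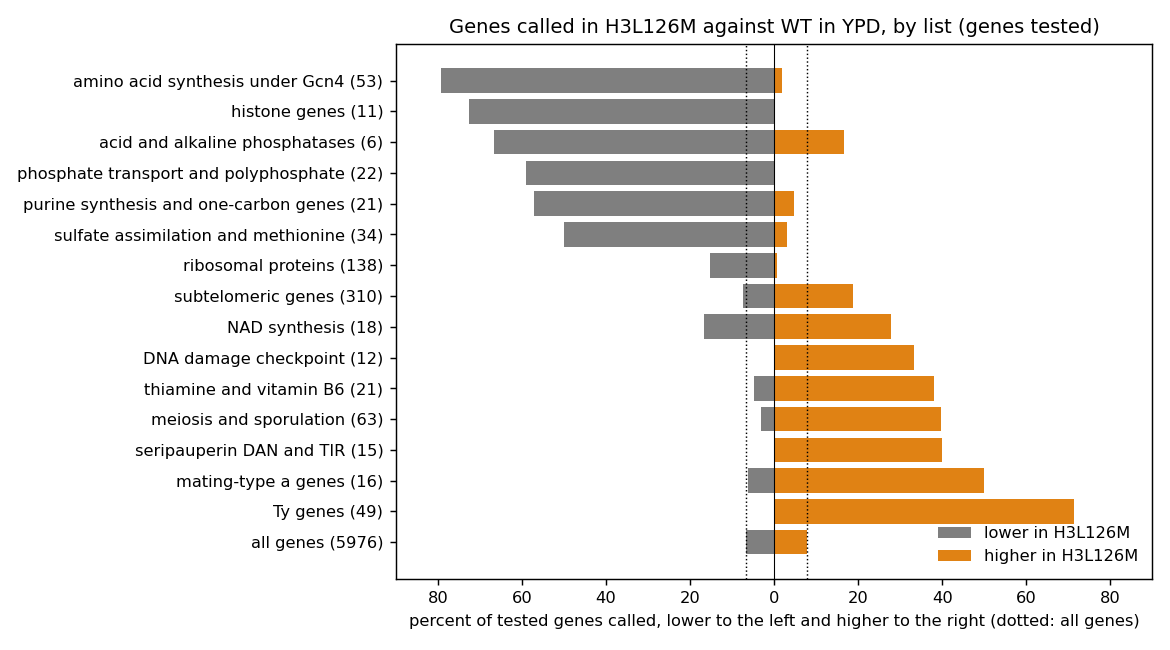
Percent of the tested genes of each list that were called in H3L126M against WT in YPD, lower to the left and higher to the right, with the number of genes tested in brackets and dotted lines at the 6.74% lower and 7.83% higher of all 5976 genes. Of the 53 amino acid genes 42 were lower and 1 higher, and of the 49 Ty genes 35 were higher and none lower.

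The largest falls were in phosphate genes. Yeast answers a lack of phosphate through the transcription factor Pho4, which induces secreted acid phosphatases, high-affinity phosphate transporters and the complex that builds polyphosphate in the vacuole. In glucose, 4 of the 6 acid and alkaline phosphatase genes fell and 1 rose, with a median log2 fold change of -1.61, against 0.0054 over all genes tested. PHO11 (YAR071W, chrI:225460-226863), a secreted acid phosphatase, had 6.69, 8.16, 8.85 and 7.14 CPM (counts scaled to library size with TMM factors) in the H3L126M libraries, against 85.5, 88.9, 107 and 113 CPM in the WT libraries. Every H3L126M library lay far below every WT library, and the log2 fold change was -3.68 (SE 0.12, adjusted p = 4.54e-10). Its near copy PHO12 (chrVIII:552099-553502) had 76.4, 79.6, 65.3 and 74.1 CPM in H3L126M and 263, 304, 317 and 345 CPM in WT, or a log2 ratio to WT of -2.06 (SE 0.09). Only 11.7% of the 50-base windows of PHO11 and 12.8% of those of PHO12 occur once in the genome, so reads of these genes cannot be assigned to either with confidence.

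PHO5 (YBR093C, chrII:429548-430951), the main repressible acid phosphatase, had 58.6, 57.2, 52.8 and 51.9 CPM in H3L126M and 219, 226, 282 and 297 CPM in WT, or a log2 ratio to WT of -2.21 (SE 0.10, adjusted p = 1.15e-08). PHO8, the alkaline phosphatase of the vacuole, had 160, 151, 157 and 164 CPM in H3L126M and 356, 368, 350 and 338 CPM in WT, with the tightest replicates of this group (log2 fold change -1.16, SE 0.05). The neighbor of PHO5, PHO3, which encodes a constitutive acid phosphatase, was not called. It had 271, 283, 243 and 238 CPM in H3L126M, inside the 234, 245, 359 and 410 CPM of WT, whose pairs of libraries differed. Its log2 fold change was -0.27 (adjusted p = 0.253) with all libraries, -0.59 without WT replicates 1 and 2, where it was called (adjusted p = 8.8e-05), and 0.11 without WT replicates 3 and 4. DIA3, which codes for a protein similar to acid phosphatases, was low and moved the other way, with 8.54 to 10.8 CPM in H3L126M and 3.30 to 7.60 CPM in WT (log2 fold change 0.99, adjusted p = 0.00888), and was not called without H3L126M replicates 3 and 4 (adjusted p = 0.0653).

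Of 22 further genes for phosphate transport and polyphosphate, 13 fell and none rose, with a median of -0.46. PHO89, a sodium-coupled phosphate transporter, had 20.5, 16.5, 35.9 and 28.0 CPM in H3L126M and 127, 113, 80.3 and 65.0 CPM in WT (log2 fold change -1.93, SE 0.25, adjusted p = 0.000133). SPL2, which acts on low-affinity phosphate uptake, had 22.8, 18.3, 33.5 and 29.7 CPM in H3L126M and 101, 96.1, 88.9 and 88.2 CPM in WT (log2 fold change -1.84). In both genes the highest H3L126M library stayed below the lowest WT library. Among subunits of the vacuolar polyphosphate polymerase, VTC3 and VTC1 were lower, and no values are given here for the others on the list. VTC3 had a log2 fold change of -0.88 (SE 0.09) and VTC1 of -0.77 (SE 0.06), and VTC3 had 602 to 692 CPM in H3L126M and 1030 to 1386 CPM in WT. CTF19 (log2 fold change -0.62), a kinetochore gene that was on the list, and GPP1 (-0.61), a glycerol phosphatase, were also lower.

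PHO84, the main high-affinity phosphate transporter, was chosen for description after its values were seen, because the WT libraries disagreed on it more than on the other phosphate genes. It had 807, 892, 663 and 524 CPM in H3L126M and 557, 568, 1312 and 1437 CPM in WT. The groups overlapped, although H3L126M replicate 4 was below every WT library, and its log2 fold change of -0.43 was not called (adjusted p = 0.334). It was -0.95 without WT replicates 1 and 2, where it was called (adjusted p = 0.000156), and 0.36 without WT replicates 3 and 4 (adjusted p = 0.0596). PHM8, a nucleotide phosphatase, was called at an adjusted p of 0.0476 (log2 fold change -0.86) and lost the call without WT replicates 1 and 2 (log2 fold change -0.20, adjusted p = 0.436). The call was also lost without any single H3L126M library or without WT replicate 1 or 2, with adjusted p of 0.0572 to 0.128. Of the 8 regulators of the pathway 3 fell, by less than 1.5-fold each, and they are named only because they are few. They are PHO81, the inhibitor of the Pho80-Pho85 kinase (-0.37), PHO4 itself (-0.33) and VIP1, which makes inositol pyrophosphates (-0.28), and none of the regulators was called lower without H3L126M replicates 3 and 4. PHO4 (adjusted p = 0.0451) was also not called with upper-quartile scaling, in fits of the 8 or of all 24 libraries, or without H3L126M replicate 1, 3 or 4 or WT replicate 2, 3 or 4, with adjusted p of 0.0537 to 0.115. The regulator that rose was PHO92 (3.38), a reader of methylated mRNA with a role in meiosis, which had 2.23 to 5.07 CPM in H3L126M and 0 to 0.556 CPM in WT.

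**Figure D2:**
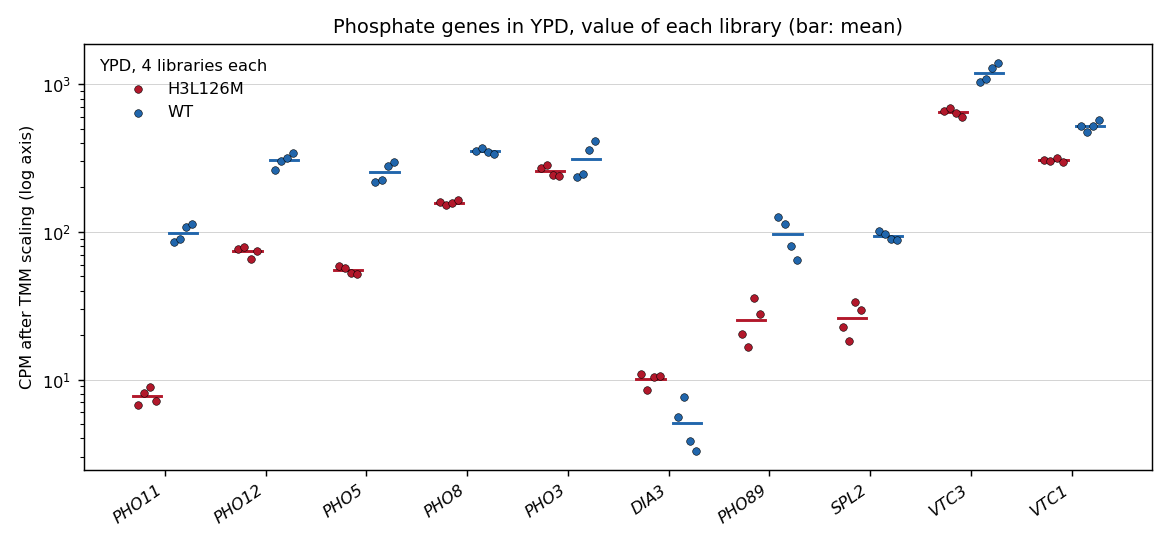
CPM after TMM scaling, on a log axis, of 10 phosphate genes in each of the 4 H3L126M libraries (red, left) and the 4 WT libraries (blue, right) in YPD, in the order of replicate numbers, with bars for the means. PHO11 had 6.69 to 8.85 CPM in H3L126M and 85.5 to 113 CPM in WT, while the groups overlapped for PHO3.

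Upstream sequences of the phosphate genes are shown because these are the genes with the largest falls. The motif CACGTG, bound by Pho4 and by Cbf1, was searched on both strands in the 500 bases before each start codon. It was present in 360 of 5756 genes tested that have such a window (6.25%), in 14 of the 22 transport and polyphosphate genes (63.6%) and in 3 of the 6 phosphatase genes. Genes were put on these lists as known parts of the pathway, so the shares describe the lists. The stretches below are 40 bases of R64 with the motif in capitals, each read on the strand of its gene.
PHO5, chrII:431182-431221, minus strand: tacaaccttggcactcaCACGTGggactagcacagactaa
PHO11, chrI:225160-225199, plus strand: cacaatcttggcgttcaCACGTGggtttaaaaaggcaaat
PHO12, chrVIII:551799-551838, plus strand: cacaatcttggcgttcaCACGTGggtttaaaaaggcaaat
PHO89, chrII:798823-798862, minus strand: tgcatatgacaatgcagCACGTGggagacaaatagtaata
VTC3, chrXVI:517307-517346, minus strand: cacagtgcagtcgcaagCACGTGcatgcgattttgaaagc
The stretches of PHO11 and PHO12 are identical, as much of the genes is. No CACGTG lay in the 500 bases before PHO8, which fell by 1.16 on the log2 scale. Among the 19 genes at least 2-fold lower, 8 (42.1%) had the motif.

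Genes for sulfur amino acids were the second group among the large falls. Yeast takes up sulfate, reduces it to sulfide and builds homocysteine, which Met6 methylates to methionine, and methionine is activated to S-adenosylmethionine by Sam1 and Sam2. Of 34 genes tested, 17 fell and 1 rose, with a median of -0.39. MET6 (YER091C, chrV:339864-342167) had 234, 232, 228 and 173 CPM in H3L126M and 887, 917, 798 and 855 CPM in WT, or a log2 ratio to WT of -1.99 (SE 0.10, adjusted p = 3.29e-08). The groups were far apart at every replicate. SAM2 had 155, 156, 162 and 125 CPM in H3L126M and 299, 305, 290 and 313 CPM in WT (log2 fold change -1.01, SE 0.08), and SAM3, which imports S-adenosylmethionine, had 36.9, 41.4, 37.7 and 25.3 CPM in H3L126M and 90.5, 97.5, 83.1 and 95.4 CPM in WT (log2 fold change -1.38, SE 0.12). In all of these H3L126M replicate 4 was the lowest library.

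STR3, which makes homocysteine from cystathionine, had 5.26, 3.41, 4.66 and 5.61 CPM in H3L126M, against 40.2, 41.0, 13.7 and 10.1 CPM in WT. The groups did not overlap, but the size of the fall followed the pairs of WT libraries, so the log2 fold change of -2.46 carried an SE of 0.41. Sulfate reduction was lower as well, with MET16, the PAPS reductase, at -0.86 (13.5 to 15.7 CPM in H3L126M, 20.4 to 34.8 CPM in WT) and MET10, a subunit of sulfite reductase, at -0.76. HOM2, which acts in the shared branch to methionine and threonine, had -0.84, and MUP1, a methionine importer, -0.73. MET31, a regulator of the pathway, was the gene that rose (0.24). Both strains lack MET17, so neither can fix sulfide into homocysteine by that enzyme, and they take their methionine from the medium.

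The same motif CACGTG stands before many of these genes, where it is known as the site of Cbf1, and was found in 21 of the 34 (61.8%). The motif AAACTGTGG, known for Met31 and Met32, was found in 11 of the 34 and in 49 of the 5756 windows (0.851%). Stretches before 3 genes of the group that fell are given in the same way as above, to show a site in each.
MET6, chrV:342628-342667, minus strand: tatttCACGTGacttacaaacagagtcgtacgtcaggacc
SAM2, chrIV:1454765-1454804, minus strand: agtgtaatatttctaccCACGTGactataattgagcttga
MET16, chrXVI:877788-877827, minus strand: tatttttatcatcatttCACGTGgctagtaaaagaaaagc
The motif before MET6 sits at the far edge of the window, while that of MET16 lies closer to the gene.

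Synthesis of the other amino acids was lower across most branches. These pathways are under general amino acid control, in which the transcription factor Gcn4 raises many of their genes when amino acids run short. Of 53 genes tested 42 fell and 1 rose, and the median was -0.42. HIS4 (YCL030C, chrIII:65934-68333), a histidine enzyme that catalyses several steps, had 209, 182, 368 and 306 CPM in H3L126M and 828, 920, 604 and 550 CPM in WT (log2 fold change -1.45, SE 0.21, adjusted p = 0.000374). Replicates 1 and 2 differed from replicates 3 and 4 in both strains, and in opposite directions, yet the groups stayed apart. HIS1, the first enzyme of the pathway, varied less, with 264, 264, 284 and 276 CPM in H3L126M and 506, 549, 581 and 571 CPM in WT (log2 fold change -1.02, SE 0.06, adjusted p = 4.14e-08).

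Arginine genes followed, with ARG1, the argininosuccinate synthase, at 52.5, 54.9, 80.9 and 66.1 CPM in H3L126M and 122, 173, 130 and 124 CPM in WT (log2 fold change -1.11, SE 0.14). ARG7 had a log2 fold change of -1.02 and ARG5,6 of -0.87, both of the ornithine branch. ARG4, the argininosuccinate lyase, was called (-0.78, adjusted p = 0.0279) but not without WT replicates 1 and 2 (-0.52, adjusted p = 0.082), nor without H3L126M replicates 1 and 2 (-0.39, adjusted p = 0.186). Leaving out any 1 of these 4 libraries also ended the call, with adjusted p of 0.0546 to 0.0825. Outside histidine and arginine, LYS20, a homocitrate synthase of the lysine pathway, had -0.95, LEU1, an isomerase of the leucine pathway with an iron-sulfur cluster, -0.84, and HIS5 -0.86. The gene that rose was SER3, a dehydrogenase of serine synthesis, with 64.3 to 80.5 CPM in H3L126M and 47.2 to 57.2 CPM in WT (log2 fold change 0.49, adjusted p = 0.0039). It was not called in a fit of all 24 libraries (adjusted p = 0.1001) or without H3L126M replicates 3 and 4 (adjusted p = 0.0567). HIS3 is present in these strains as the his3Δ1 allele, and what is counted of it was lower too (-0.67, adjusted p = 0.00548).

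Purine synthesis shares steps with one-carbon metabolism, which hands on carbon units bound to folate, and 12 of its 21 genes fell and 1 rose (median -0.40). ADE17, which carries out the last steps to IMP, had 134, 119, 162 and 159 CPM in H3L126M and 325, 392, 351 and 375 CPM in WT (log2 fold change -1.33, SE 0.10, adjusted p = 1.38e-06). SHM2, the serine hydroxymethyltransferase of the cytosol, had -0.94, with 375 to 444 CPM in H3L126M and 736 to 882 CPM in WT. MTD1 (-0.62), ADE12 (-0.61) and ADE1 (-0.60) were also lower. IMD2, the IMP dehydrogenase that leads to guanine nucleotides, rose, with 354 to 444 CPM in H3L126M and 189 to 266 CPM in WT (log2 fold change 0.84, adjusted p = 5.62e-05). Only 66.3% of its windows are unique.

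**Figure D3:**
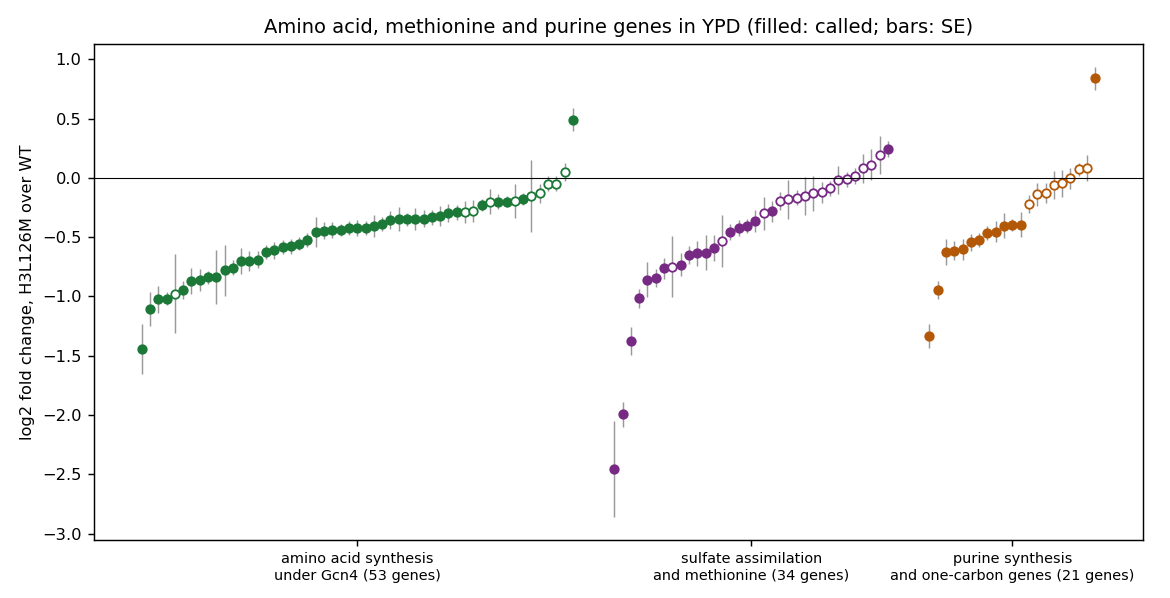
Log2 fold change of H3L126M over WT in YPD for each tested gene of 3 lists, ordered within a list, with bars for the SE, filled points for called genes and open points for the others. Most points lie below 0, from -1.45 (HIS4) to 0.49 (SER3) among the amino acid genes, down to -2.46 (STR3) among the sulfur genes and from -1.33 (ADE17) to 0.84 (IMD2) among the purine genes.

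The core motif of Gcn4, TGACTC, was found on either strand within 500 bases of the start codon in 39 of the 53 amino acid genes (73.6%), in 15 of the 21 purine and one-carbon genes (71.4%) and in 742 of the 5756 windows of all genes tested (12.9%). Of the 19 genes that were at least 2-fold lower, 9 (47.4%) had it. The stretches of 3 such genes and of HIS5 are shown, and GAGTCA is the same motif read on the other strand.
HIS4, chrIII:68510-68549, minus strand: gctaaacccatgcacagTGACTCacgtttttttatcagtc
ARG1, chrXV:218920-218959, plus strand: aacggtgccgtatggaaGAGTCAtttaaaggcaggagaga
HIS1, chrV:265946-265985, minus strand: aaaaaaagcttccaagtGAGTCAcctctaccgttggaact
HIS5, chrIX:142709-142748, plus strand: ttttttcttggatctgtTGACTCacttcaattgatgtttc
No TGACTC lay in that window of LYS20, although it fell by 0.95 on the log2 scale.

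Most histone genes were themselves lower in H3L126M. They are expressed in S phase from divergent pairs, with separate copies for each core histone. Of 11 genes tested 8 fell and none rose, with a median of -0.35. HTB1, a gene for H2B, had 657, 632, 691 and 618 CPM in H3L126M and 1059, 1113, 885 and 890 CPM in WT (log2 fold change -0.60, SE 0.08, adjusted p = 0.000114). The other H2A and H2B genes followed, HTA2 at -0.60, HTB2 at -0.56 and HTA1 at -0.41. Of the genes that carry the substitution, HHT1 had 568, 563, 589 and 491 CPM in H3L126M and 702, 708, 709 and 708 CPM in WT (-0.35, adjusted p = 0.000986), and HHT2 had 1162, 1116, 1223 and 1195 CPM in H3L126M and 1626, 1604, 1305 and 1226 CPM in WT (-0.29, adjusted p = 0.0331). HHF2, one of the H4 genes, had -0.36 and HTZ1, the H2A.Z variant, -0.35.

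HHF1, the other H4 gene, was not called, at 567 to 675 CPM in H3L126M and 622 to 670 CPM in WT (log2 fold change -0.04, adjusted p = 0.746). Neither were the linker histone HHO1 (-0.06) and the centromere variant CSE4 (-0.01), and the sign of these small values turned under some settings. HTA1 and HHT2 lost their calls without WT replicates 1 and 2, where their log2 fold changes were -0.26 and -0.12, while HTB1, HTB2, HTA2, HHF2, HHT1 and HTZ1 were still called. The calls of HTA1 and HHT2 also ended without replicate 1 or 2 of either strain, with adjusted p of 0.0666 to 0.103 for HTA1 and 0.0812 to 0.0935 for HHT2. The number of histone genes called lower was 6 with upper-quartile scaling or in a fit of the 8 libraries alone. It was 5 in a fit of all 24 libraries, where HTA2 (adjusted p = 0.0847), HHT1 (adjusted p = 0.14) and HTA1 (adjusted p = 0.185) were not called. Of 19 histone chaperones and regulators of histone genes 4 rose and none fell, each by less than 1.5-fold. They were SPT10 (0.27) and SWI4 (0.54), activators of transcription, and CAC2 (0.31) and RLF2 (0.27), subunits of the chromatin assembly factor CAF-1. The number was 1 or 2 without H3L126M replicate 1, 3 or 4 or WT replicate 1, 2 or 3, and 7 without WT replicate 4.

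The most strongly expressed genes as a whole were slightly lower. When genes were ordered by mean CPM and divided into 10 equal bins, the top bin had a median log2 fold change of -0.15, with 16 genes called higher and 138 lower, and the lowest bin a median of 0.28, with 103 higher and 2 lower. The top bin took 61.0%, 61.9%, 60.7% and 56.6% of the counts in the H3L126M libraries and 62.7%, 63.2%, 62.6% and 64.1% in the WT libraries. The groups did not overlap, and H3L126M replicate 4 was the lowest. The lowest bin took 0.178% to 0.211% in H3L126M and 0.132% to 0.143% in WT. Among highly expressed lists, 21 of 138 ribosomal protein genes (15.2%) fell and 1 rose (median -0.18), a smaller share of falls than the 138 of 598 genes in the top bin. The number that fell was 66 without WT replicates 1 and 2 and 9 without WT replicates 3 and 4. It was 10 or 11 without WT replicate 3 or 4, 11 or 12 without H3L126M replicate 1 or 3, 10 with upper-quartile scaling, 6 in a fit of all 24 libraries and 3 in a fit of the 8 libraries alone. RPS22B, for a protein of the small ribosomal subunit, was the exception in size, with 130, 129, 129 and 95.4 CPM in H3L126M and 256, 237, 282 and 298 CPM in WT (log2 fold change -1.15, SE 0.10, adjusted p = 4.22e-06). TDH2, a glyceraldehyde phosphate dehydrogenase of glycolysis, had a log2 fold change of -0.74.

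For genes of energy metabolism, stress and ribosome assembly, the result turned on the pair of WT libraries. Of 27 genes of the electron transport chain, 2 rose, NDE2 (0.74) and CYC1 (0.52), and none fell with all libraries, 21 rose without WT replicates 1 and 2, and 14 fell without WT replicates 3 and 4. Of 17 genes of ATP synthase none was called with all libraries, 13 rose without WT replicates 1 and 2, and 2 fell without WT replicates 3 and 4. Heat shock and stress genes, 28 in all, had 3 higher and 1 lower, but 19 higher without WT replicates 1 and 2 and 18 lower without WT replicates 3 and 4, and 7 lower without WT replicate 4 alone. Among 37 genes for glucose uptake and glycolysis 4 rose and 8 fell, with 13 higher without WT replicates 1 and 2 and 21 lower without WT replicates 3 and 4. All 36 genes of ribosome assembly fell without WT replicates 1 and 2, where 8 did so with all libraries and 5 without WT replicates 3 and 4. No direction can be given for H3L126M in these lists from the 8 libraries.

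The largest rise among well counted genes was in NAD synthesis. Yeast makes NAD from tryptophan in the kynurenine pathway, which Bna2 opens, and it also takes up nicotinic acid. BNA2 (YJR078W, chrX:578860-580221) had 26.0, 29.1, 22.8 and 30.3 CPM in H3L126M and 3.27, 3.99, 2.66 and 3.05 CPM in WT, or a log2 ratio to WT of 3.06 (SE 0.15, adjusted p = 1.68e-08). The lowest H3L126M library was far above the highest WT library. Of the later steps, BNA4 and BNA1 rose less, and BNA5 and BNA6 were not called higher. BNA4, the kynurenine monooxygenase, had 84.0, 91.9, 87.7 and 72.1 CPM in H3L126M and 31.0, 39.7, 32.4 and 39.1 CPM in WT (log2 fold change 1.24, SE 0.10), and BNA1, a dioxygenase further on, 109 to 123 CPM in H3L126M and 51.2 to 66.8 CPM in WT (0.96, SE 0.08). Over the 18 genes of NAD synthesis and import 5 rose and 3 fell, 1 without H3L126M replicate 1 or WT replicate 1 or 2, and the median was 0.06, so the large values belong to BNA2, BNA4 and BNA1 of the tryptophan branch. The others that rose were the importers TNA1 (0.31) and NRT1 (0.40), and those that fell were SDT1 (-0.55), ISN1 (-0.41) and NRK1 (-0.31), named because they are few. BNA2 is known to be repressed through the sirtuin Hst1, and of 17 sirtuin and silencing genes 1 rose, the sirtuin HST4 (0.37), and 1 fell, the acetyltransferase subunit SAS5 (-0.37). None of the 17 was called higher without H3L126M replicate 1, 3 or 4 or WT replicate 1 or 2, or in fits of the 8 or of all 24 libraries.

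Among genes of meiosis and spore formation more were called higher than lower, though these haploid cells in rich glucose medium do not sporulate. In sporulation, early genes induced by Ime1 are followed by middle genes induced by Ndt80, many of which build the spore wall. Of 63 genes tested 25 (39.7%) rose and 2 (3.17%) fell, with a median of 0.51, against 7.83% and 6.74% of all genes tested. Rises were more frequent among weakly expressed genes in general. In the lowest bin of mean CPM 103 of 598 genes were called higher, and in the next bin 99 of 598. The list was not compared with genes of like expression. CDA1, a chitin deacetylase of the spore wall, had 9.56, 7.11, 7.40 and 8.60 CPM in H3L126M and 0.885, 1.76, 0.859 and 1.15 CPM in WT (log2 fold change 2.81, SE 0.23, adjusted p = 3.01e-06). SPR28, a septin of sporulating cells, had 5.90, 5.12, 3.62 and 5.15 CPM in H3L126M and 2.12, 0.649, 1.20 and 0.824 CPM in WT (2.03, SE 0.30). Both genes lay clear of WT in all 4 libraries. These are averages over cells, so a rise in all cells and a rise in a few cells cannot be told apart.

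Other middle and late genes that rose were SPS4 (1.69), with 8.12 to 12.05 CPM in H3L126M and 2.83 to 3.30 CPM in WT, DIT1 (1.67), which makes dityrosine for the outer spore wall, GIP1 (1.55), a partner of the phosphatase Glc7 in spore wall formation, SPR3 (1.54), another septin, and LOH1 (1.65). Of the genes for meiotic chromosomes, REC8 (1.22), the meiotic cohesin, MAM1 (1.97), of the monopolin complex, and MEI5 (2.00), a partner of Dmc1, rose. MEI5 had no more than 2.15 CPM in any library and lost its call without H3L126M replicate 2 or 4 or WT replicate 1 or 2. NDT80 rose by less than 1.5-fold (0.39, adjusted p = 0.0276), and its call was lost without several single libraries, with adjusted p up to 0.0777. The inducer IME1 was lower, with 7.65, 9.77, 8.61 and 7.76 CPM in H3L126M and 19.9, 17.6, 15.9 and 13.6 CPM in WT (log2 fold change -0.99, SE 0.14, adjusted p = 0.000222), as was MND1, of meiotic recombination, with 0.717 to 1.53 CPM in H3L126M and 2.04 to 3.45 CPM in WT (-1.28). Without H3L126M replicates 3 and 4 REC8 was not called (adjusted p = 0.0567), nor was MND1 without H3L126M replicates 1 and 2 (adjusted p = 0.097). PES4, an RNA-binding protein of the middle sporulation program that was not on the list, was among the largest rises, with 5.10, 8.54, 6.19 and 9.22 CPM in H3L126M and 1.59, 1.30, 1.37 and 1.15 CPM in WT (2.41, SE 0.23).

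The core of the middle sporulation element bound by Ndt80, GNCACAAA with N for any base, was found within 500 bases upstream on either strand in 20 of the 63 genes (31.7%), in 399 of 5756 genes tested (6.93%) and in 33 of the 118 genes at least 2-fold higher that have a window (28.0%). The sites before a pair of the named genes are shown, the second on the other strand.
SPS4, chrXV:903043-903082, minus strand: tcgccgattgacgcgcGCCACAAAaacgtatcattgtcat
PES4, chrVI:199628-199667, plus strand: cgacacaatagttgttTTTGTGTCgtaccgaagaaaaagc
No match lay in that window of CDA1 or BNA2.

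Some mating genes were higher too. In MATa cells the transcription factor Ste12 drives genes of pheromone response and cell fusion. Of 16 genes of this kind 8 rose and 1 fell, with a median of 0.45. The gene that fell was STE4 (-0.18), the beta subunit of the G protein of the pathway. No gene of this list was called lower with upper-quartile scaling or in a fit of the 8 libraries alone. The same held without H3L126M replicate 1 or 2 or WT replicate 1 or 3. FIG1, a membrane protein of mating cells (chrII:316968-317864), had 10.04, 10.1, 9.33 and 11.1 CPM in H3L126M and 1.68, 2.04, 2.06 and 1.73 CPM in WT (log2 fold change 2.43, SE 0.19, adjusted p = 1.81e-06). FUS2, of cell fusion, had 26.7, 26.9, 23.5 and 26.7 CPM in H3L126M and 7.96, 7.88, 10.6 and 10.5 CPM in WT (1.48, SE 0.14). FUS1 (1.05) acts in the same step, and AGA1 (1.38), the anchor of a-agglutinin, had 342 to 444 CPM in H3L126M and 119 to 187 CPM in WT. PRM6, a potassium transporter regulated by pheromone and not on the list, had 5.66, 5.41, 4.50 and 3.53 CPM in H3L126M and 0.354, 0.742, 1.03 and 2.23 CPM in WT (2.10, SE 0.40). These genes did not overlap between the strains.

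The size of the mating result depended on the pairs of WT libraries. BAR1, the protease that degrades alpha-factor, had 356, 366, 282 and 268 CPM in H3L126M and 126, 135, 223 and 245 CPM in WT, and was called (0.80, adjusted p = 0.0122), but not in a fit of the 8 libraries alone (adjusted p = 0.056) or without H3L126M replicates 1 and 2 (0.59, adjusted p = 0.152). STE2, the alpha-factor receptor, chosen after its values were seen, had 700, 755, 581 and 557 CPM in H3L126M and 371, 371, 609 and 663 CPM in WT and was not called (0.36, adjusted p = 0.18). In both genes WT replicates 1 and 2 were the low ones. The exporter of a-factor, STE6, chosen in the same way, had 0.42 (adjusted p = 0.194). Without WT replicate 4 both were called, at 0.52 and 0.60. Over the 16 genes the median was 0.11 without WT replicates 1 and 2, with 7 higher, and 0.74 without WT replicates 3 and 4, with 13 higher. Leaving out WT replicate 4 alone gave 12 higher in place of 8.

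The motif TGAAACA of Ste12 was found upstream in 13 of the 16 genes (81.3%) and in 688 of 5756 (11.95%), and the stretches before both fusion genes show it.
FUS1, chrIII:71626-71665, plus strand: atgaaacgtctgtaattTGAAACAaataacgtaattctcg
FUS2, chrXIII:736709-736748, plus strand: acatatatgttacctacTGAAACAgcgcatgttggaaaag
FIG1 had no such match in the window.

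Of 5 tested genes of alpha cells and the silent mating-type cassettes, 4 rose and none fell. Only these 5 of the 10 list members among the counted ORFs passed the count filter. The filter can admit a gene through a strain where it is high, so the share depends on it. It was 4 of 8 without a filter and 3 of 4 with a minimum count of 50. Of the 5, the member not called was HMRA1, whose sequence is that of the a gene, and the 4 that rose belong to alpha cells. STE3, the receptor for a-factor, had 15.4, 14.1, 12.4 and 16.5 CPM in H3L126M and 4.33, 4.26, 4.21 and 3.21 CPM in WT (log2 fold change 1.87, SE 0.15, adjusted p = 2.01e-06). MF(ALPHA)2, a gene for alpha-factor, had a log2 fold change of 0.91, which was not called without H3L126M replicates 1 and 2 (adjusted p = 0.0555), and SAG1, alpha-agglutinin, had 0.55. MF(ALPHA)1, the main gene for alpha-factor, had 14, 25, 14 and 26 raw counts in H3L126M and 0, 0, 2 and 6 in WT. It was called, but its fitted fold change depends on the prior count, since the WT libraries hold so few reads. The genes that set alpha identity, at MAT and the silent HML, were at or near 0 in all 8 libraries.

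**Figure D4:**
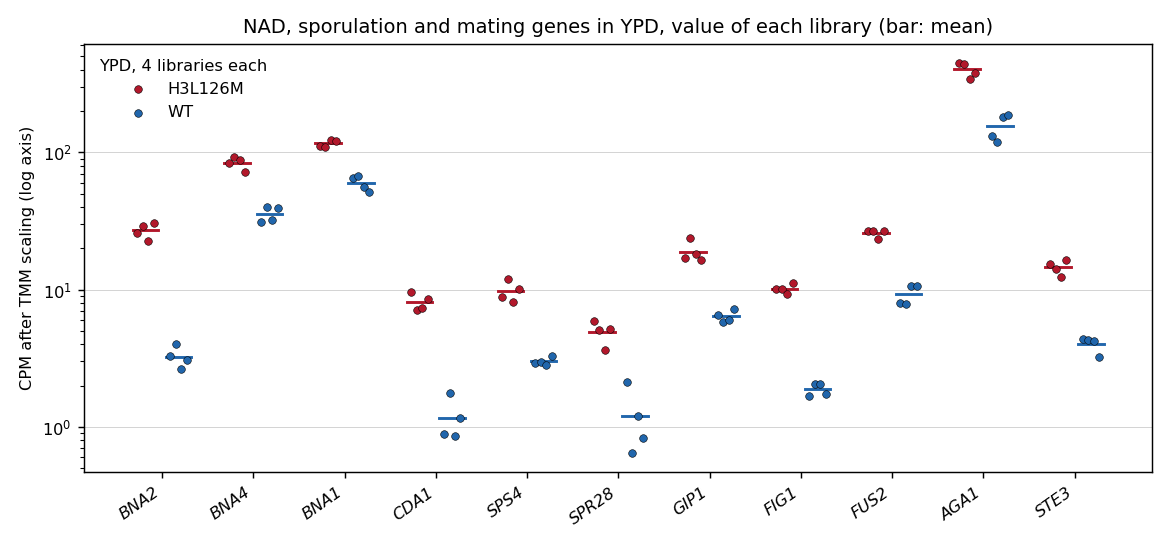
CPM after TMM scaling, on a log axis, of 11 genes of NAD synthesis (BNA2, BNA4, BNA1), sporulation (CDA1, SPS4, SPR28, GIP1) and mating (FIG1, FUS2, AGA1, STE3) in each of the 4 H3L126M libraries (red, left) and the 4 WT libraries (blue, right) in YPD, with bars for the means. In each gene all H3L126M points lie above all WT points, as for BNA2 with 22.8 to 30.3 CPM in H3L126M and 2.66 to 3.99 CPM in WT.

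Ty retrotransposons rose broadly. Of 49 Ty genes tested 35 were higher and none lower, with a median of 0.76, and the called genes ranged from 0.28 to 2.95. Reads of Ty copies cannot be told apart, since 0% to 36.4% of the windows of these called genes are unique, so the 35 genes are not independent of each other. YBL100W-B (chrII:29935-35248) had 224, 203, 193 and 218 CPM in H3L126M and 23.4, 29.7, 26.4 and 28.8 CPM in WT (log2 fold change 2.95, SE 0.08, adjusted p = 9.86e-11), with 15.7% of its windows unique. YDR034C-D (1.85) and YDR210C-D (1.75) were the next. Genes whose start lies within 30 kb of a chromosome end were called higher in 58 of 310 cases (18.7%) and lower in 23 (7.42%), with a median of 0.15. No chromosome moved as a whole, since chromosome medians, as log2 values relative to the mean of the WT libraries in YPD, were -0.04 to 0.05 in H3L126M and -0.06 to 0.05 in WT.

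Other large rises among well counted genes were PDC6, a minor pyruvate decarboxylase, with 7.73, 6.45, 6.59 and 5.53 CPM in H3L126M and 1.59, 1.76, 0.344 and 1.81 CPM in WT (2.25, SE 0.32), IRC18 (2.24), a gene of unclear function related to LOH1, HXT10 (1.84), a little used hexose transporter, the uncharacterized YML083C (1.79) and FRM2 (1.72), a nitroreductase-like protein. HXT10 was not called without H3L126M replicates 3 and 4 (adjusted p = 0.0663). PDC5, another pyruvate decarboxylase, had 34.96 to 53.1 CPM in H3L126M and 16.8 to 22.3 CPM in WT (1.23). Of 12 genes of the DNA damage response 4 rose and none fell. HUG1, a small inhibitor of ribonucleotide reductase, had 14.5, 13.0, 20.4 and 16.6 CPM in H3L126M and 5.04, 5.38, 3.78 and 6.02 CPM in WT (1.67, SE 0.19, adjusted p = 4.32e-05), and RNR3, a subunit of that enzyme, had 1.13 (SE 0.12).

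In phospholipid synthesis INO2, the activator of the pathway, and INO1, the inositol phosphate synthase it activates, moved in opposite directions. INO2 had 26.9, 19.2, 20.8 and 20.7 CPM in H3L126M and 60.7, 51.8, 49.2 and 37.4 CPM in WT (log2 fold change -1.18, SE 0.15), and INO1 had 13.2, 15.1, 13.2 and 11.7 CPM in H3L126M and 3.36, 6.30, 5.67 and 6.02 CPM in WT (1.31, SE 0.18). Neither gene overlapped between the strains. Of 26 genes of oxidant defence 2 (7.69%) were higher and 6 (23.1%) lower, against 7.83% higher and 6.74% lower of all genes tested. The share higher was thus near that of all genes, while the share lower was above it. The 6 that fell are not named here, and none of them fell by 2-fold. Their number was 5 or 6 without any single library. Those higher were OYE3 (1.29), an NADPH oxidoreductase, and PRX1 (0.97), the peroxiredoxin of mitochondria, and 4 were higher without H3L126M replicate 4. OYE3 was not called without H3L126M replicates 3 and 4 (adjusted p = 0.0828). Among 24 copper genes, 3 (12.5%) rose and 1 (4.17%) fell, with a median of 0.02, against 7.83% and 6.74% of all genes tested. Counts this small do not set the list apart from all genes. CUP1-1 and CUP1-2, whose promoter drives the Cu1+ reporter of the paper, had at most 1 count in any of the 8 libraries. No change can be given for them. FRE7, a reductase of the plasma membrane that is induced when copper is scarce, was the largest change, with 48.6, 67.9, 43.0 and 35.5 CPM in H3L126M and 20.9, 15.6, 17.8 and 17.8 CPM in WT (1.43, SE 0.18). CTR3, a copper importer, had 0.79, CCC2, a copper pump of the Golgi, 0.41 and the mitochondrial carrier MRS3 -0.21. No copper gene was called lower with upper-quartile scaling, in a fit of the 8 libraries alone or without any 1 library other than WT replicate 4, and 2 in place of 3 were called higher in that fit of 8 and without H3L126M replicate 1, 2 or 3 or WT replicate 1 or 2.

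Of the genes at least 2-fold higher, 49 had a median count under 50 in H3L126M, and 1 of those at least 2-fold lower had so few in WT. ANS1, for a putative cell wall protein, had 8, 13, 27 and 19 raw counts in H3L126M and 0, 0, 0 and 4 in WT. THI5, of thiamine pyrimidine synthesis, had 51, 38, 30 and 40 raw counts in H3L126M and 2, 2, 0 and 7 in WT. Their fitted log2 fold changes of 3.82 and 3.72 depend on the prior count, and 14.99% of the windows of THI5 are unique. In the thiamine and vitamin B6 list 8 of 21 genes rose and 1 fell (median 0.55), with 5 higher without H3L126M replicate 4 and 10 without WT replicate 4. Seripauperin, DAN and TIR genes, which encode cell wall proteins of cells short of oxygen, had 6 of 15 higher and none lower (median 0.47). Only these 15 of the 30 genes listed passed the count filter, which can admit a gene through a strain where it is high. The share therefore depends on the filter. It was 7 of 26 without a filter and 3 of 8 (median 0.29) with a minimum count of 50.

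A comparison of both substitutions shows where H3L126M cells in glucose stood apart from H3L126H cells in the same medium. Of all 5976 genes, 2132 (35.7%) differed between H3L126M and H3L126H. Among the 15 genes chosen for the largest falls from WT, 10 differed between the substitutions, all of them lower in H3L126M. As log2 values of H3L126M over H3L126H, MET6 had -1.52 (SE 0.10), SAM3 -1.96 and STR3 -1.49. PHO8 differed by only 0.02 (adjusted p = 0.769). Of the 15 largest rises 6 differed, 5 of them higher in H3L126M, such as BNA2 (0.51, adjusted p = 0.00723), while FRM2 was lower in H3L126M than in H3L126H (-1.21). The choice by the fold against WT uses the same H3L126M libraries, so these counts describe the genes and are no test of the substitutions. Chromosome medians ran from -0.19 to 0.44 in H3L126H, where chromosomes II (0.41 to 0.44) and XVI (0.40 to 0.41) were high as a whole. Chromosomes V (0.21 to 0.23) and III (0.16 to 0.24) were raised less. Others were low, such as VII (-0.19 to -0.16), which holds STR3, and IV (-0.17 to -0.15), which holds PHO8. These shifts also touch the values of PHO5, PHO89, FIG1 and YBL100W-B on II, SAM3 on XVI, MET6 on V and HIS4 on III.

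The effect of H3L126M was also set against that in the ethanol and glycerol medium, in libraries of their own. There 2178 of 6022 genes (36.2%) were called against WT, 1031 higher (17.1%) and 1147 lower (19.0%), and the effect differed between the media for 1504 of 6082 genes (24.7%, interaction in a fit of all 24 libraries). All 15 of the falls chosen in YPD differed between media, each weaker or turned round in YPEG. Only 3 were also called lower in YPEG, PHO11 (-1.40), SPL2 (-1.12) and SAM3 (-0.40), and HIS4 (0.48) and INO2 (0.66) were called higher there. ADE17 had -0.03 in YPEG, against -1.33 in YPD. Because the genes were chosen for large values in YPD, smaller values elsewhere are partly built in.

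Rises carried over more often. Of the 15, 12 were also called higher in YPEG, with a median log2 fold change of 1.05 over the 15, although 12 were smaller there by the interaction test. BNA2 had 0.44 in YPEG, against 3.06 in YPD (difference -2.61, SE 0.17, adjusted p = 7.64e-10), and FIG1 had 1.14, against 2.43. Among the lists, the amino acid genes had 42 lower and 1 higher in YPD and 10 lower and 8 higher in YPEG, with 32 of 53 different between the media. The histone genes had 8 lower in YPD and no call in YPEG, with 5 of 11 different between media. Ty genes were higher in both, 35 of 49 in YPD and 39 of 48 in YPEG, and the mating genes had 11 of 16 higher in YPEG.

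**Figure D5:**
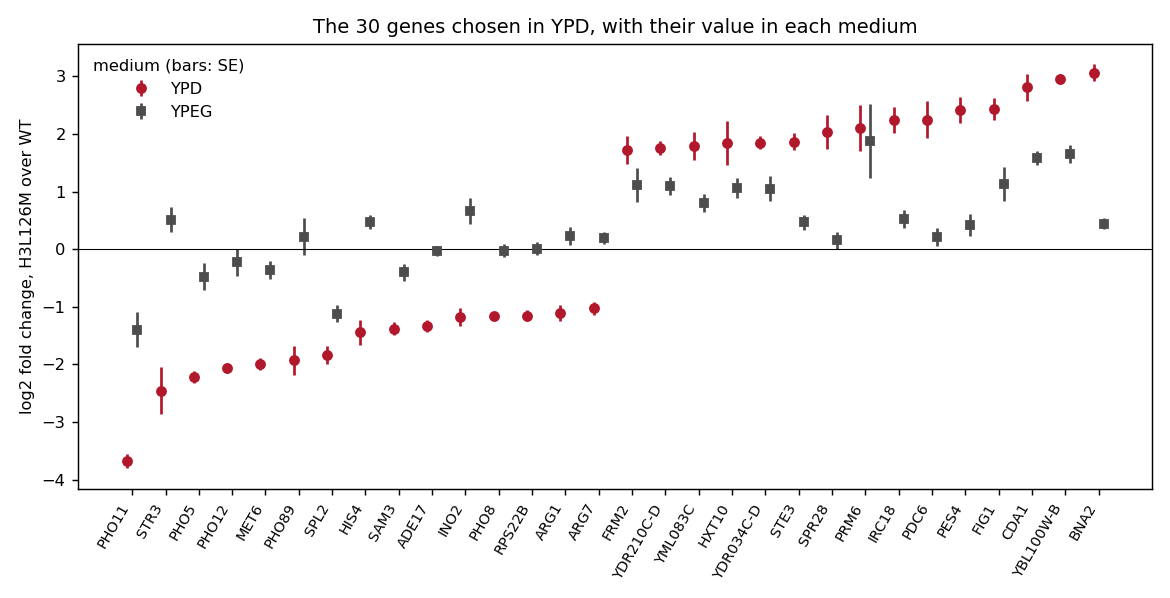
Log2 fold change of H3L126M over WT, with bars for the SE, in YPD (circles) and YPEG (squares) for the 15 genes with the largest falls and the 15 with the largest rises in YPD by the rule used to choose them. The falls lie between -3.68 and -1.02 in YPD and mostly near 0 in YPEG, where their median was -0.03, while the rises keep a median of 1.05 in YPEG.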

How the data were processed

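Poly(A) RNA of whole cells was sequenced from stranded libraries. The authors aligned the reads with HISAT2 to sacCer3 (R64-1-1), counted them per ORF with featureCounts and deposited raw counts of 6692 ORFs for 24 libraries. They also deposited a table of normalized signal, in which each column equals the raw counts over 1 size factor of DESeq2, and it was not tested. Tool versions are not given in the sources used here. Counts were analysed with R 4.3.3, edgeR 4.0.16 (TMM, filterByExpr with a minimum count of 10, quasi-likelihood test over the 12 YPD libraries) and limma 3.58.1, with Benjamini-Hochberg adjustment over all genes, and tables and figures were made with Python 3.11.15. DESeq2 1.42.0 served as an alternative. The SE of a log2 fold change is its size over the root of F.

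The gene lists and the members described were chosen with earlier results of these data known. Genes were named by a rule, the 15 largest rises and 15 largest falls that were called, at least 2-fold, with groups that did not overlap and a median count of at least 50 in the higher group, with list members changed by 1.5-fold, all histone and phosphatase genes, and the 3 largest rises of low counts. Genes outside this rule that make up a small count, such as STE4 or HST4, and PHO84, STE2 and STE6 were named after their values were seen. YPEG libraries were fitted apart in the same way, and the medium difference came from a fit of all 24 libraries. Alternatives covered scaling, filters, DESeq2, the samples fitted and libraries left out. The libraries are called replicate experiments. In the main fit the p-values rest on the spread between replicates of all 3 strains in YPD, H3L126H included. A fit of the 8 libraries alone called 526 genes in place of 871. The test also treats the 4 libraries of a strain as independent, which may not hold for the WT libraries, since they fell into pairs. A window of 50 bases was called unique where it occurs once in the genome on both strands. In simulated data for H3L126M against WT in YPD (5929 genes), 90% of changes of 1 and 99% of changes of 2 on the log2 scale were called, and 0.14% of unchanged genes. Counts were drawn on their own for each gene and library. Shifts shared by many genes, such as the split of the WT libraries into pairs, were not simulated, and these rates do not cover them. Some genes are not reported here.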

Additional observations from a re-analysis of the deposited data

Results flagged for a closer look

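Among 212 groups of 4 libraries of the genes described, 16 had a library far from the others by Dixon's ratio, where chance gives about 1 in 20 groups. In H3L126M, replicate 4 was low for MET6 (173 CPM), RPS22B (95.4), SAM2 (125), GPP1 (1050 CPM) and RNR3 (18.3), and replicate 3 stood apart for MND1 (1.53), ADE12 (368) and FUS2 (23.5). In WT, replicate 1 stood apart for MND1 (3.45) and HHT1 (702), replicate 2 for ARG1 (173), MET10 (89.5) and HTZ1 (96.4), replicate 3 for PDC6 (0.344) and replicate 4 for STE3 (3.21) and ANS1 (0.33).

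The effect of H3L126M differed between media, by the interaction test of edgeR, for 27 of the 30 genes chosen in YPD. The differences are log2 effects in YPEG minus those in YPD. Among the genes that fell in YPD they were 2.30 for PHO11, 2.97 for STR3, 1.75 for PHO5, 1.84 for PHO12, 1.64 for MET6, 2.15 for PHO89, 0.73 for SPL2, 1.93 for HIS4, 0.98 for SAM3, 1.31 for ADE17, 1.85 for INO2, 1.14 for PHO8, 1.17 for RPS22B, 1.35 for ARG1 and 1.22 for ARG7. Among the genes that rose they were -0.64 for YDR210C-D, -0.98 for YML083C, -0.79 for YDR034C-D, -1.39 for STE3, -1.87 for SPR28, -1.71 for IRC18, -2.03 for PDC6, -1.99 for PES4, -1.28 for FIG1, -1.22 for CDA1, -1.29 for YBL100W-B and -2.61 for BNA2. The genes were chosen for large values in YPD, and the WT libraries in YPD that disagree with each other enter each of these differences.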

How the results depend on the processing

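With 871 genes called and 144 at least 2-fold, the 8 libraries alone gave 526 and an adjusted p below 0.01 gave 429. Alternatives chosen after seeing the data, which left out a pair of libraries, gave 1635 genes without WT replicates 1 and 2 (223 at least 2-fold), 2068 without WT replicates 3 and 4 (232) and 487 without H3L126M replicates 1 and 2. Leaving out single libraries gave 589 to 1121 genes, and 133 to 158 at least 2-fold. DESeq2 gave 1044 and 150, other scalings and filters stayed within 1.5 times. The replicate block gave 687 genes and 137 at least 2-fold. Same-numbered libraries of the 2 strains deviated in opposite ways (correlations of -0.22 to -0.53), so the numbers were not taken to pair them. Of 2216 values for 106 genes, 2101 kept direction and side of the threshold, 98 lost the call, 6 gained it and 11 turned in sign. The turned log2 values were 0.0078 for HHF1 without H3L126M replicate 4 and 0.0013 without H3L126M replicates 3 and 4, 0.0154 for HHO1 without those replicates, and 0.11 for PHO3 and 0.36 for PHO84 without WT replicates 3 and 4. CSE4 had 0.0192 with upper-quartile scaling, 0.0041 without H3L126M replicate 3, 0.0108 without WT replicate 2, 0.0124 without WT replicate 4, 0.0359 without WT replicates 3 and 4 and 0.0095 without H3L126M replicates 1 and 2. Without single libraries the log2 values ranged over -0.067 to 0.0078 for HHF1 and -0.070 to 0.0124 for CSE4. The cause was not tested. Depth limits the genes of few counts, where fitted folds depend on the prior count.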
